A study of Mus musculus with 14 samples.

Results

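At 532 promoter regions of the mouse cerebellum, a peak of H3K27me3 was present in every library of postnatal days 7 and 14 (P7 and P14) and in none of day 60 (P60). These regions were chosen from the peak lists themselves. Peaks of the 9 P7, P14 and P60 lists were merged wherever they overlapped or touched, which gave 39220 regions on GRCm38 (mm10), of which 8609 lay within 3 kb of the transcription start site (TSS) of a protein-coding gene. A region was kept if all 3 P7 and all 3 P14 libraries had a peak in it and no P60 library did, so the 532 members were 6.18% of the promoter regions. The presence of peaks at P7 and P14 and their absence at P60 are therefore the selection and not a result. Over the whole genome, the P60 lists spanned 1.48 to 3.61 Mb, each less than any P7 or P14 list (3.62 to 15.2 Mb).

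The data are lists of broad ChIP-seq peaks, 1 list per library, from the cerebellum of C57BL/6NCrl mice of both sexes. Each replicate pooled tissue of 3 mice at P7 and of 2 mice at P14, and came from 1 mouse at P60, with 3 replicates per stage and no genotype or treatment that sets the stages apart. Another 5 lists from P14 mice, 2 of Kdm6b fl/fl (WT) and 3 of Atoh1-Cre; Kdm6b fl/fl (Kdm6b-cKO, a deletion in granule cell precursors), carry positions beyond the ends of GRCm38 chromosomes and were not used on these regions. At P7 many granule cell precursors still divide, at P14 the granule neurons are immature and have left the cell cycle, and at P60 they are mature. The lists do not identify cell types, so fewer marked cells and less mark per cell cannot be told apart.

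H3K27me3 is written by the methyltransferase Ezh1 or Ezh2 within Polycomb repressive complex 2 and is removed by the demethylases Kdm6a and Kdm6b. It is typically found over CpG-rich promoters of genes that a cell does not transcribe, above all those of transcription factors that direct the formation of other tissues. In maturing neurons the mark can also lie over genes of the mature cell until these are switched on.

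Member regions were rich in CpG dinucleotides, as Polycomb targets of mammals usually are. Below, the 250 bases before the start of a gene are printed for 5 members among those with the longest P14 coverage, because they show the range from a dense CpG promoter to one with few CpGs. They are from RefSeq on GRCm38.p6, 5' to 3' on the strand of the gene, and capitals mark each CG. All 5 lie inside their member region. The Grb10 window, chr11:12037421-12037670 on the minus strand, held 40 CpGs, Hhex, chr19:37434591-37434840 on the plus strand, held 32, and Hmx3, chr7:131542713-131542962 on the plus strand, held 31. The Adrb1 window, chr19:56721867-56722116 on the plus strand, held 24 CpGs, and the Ferd3l window, chr12:33928175-33928424 on the plus strand, held 4.
Grb10: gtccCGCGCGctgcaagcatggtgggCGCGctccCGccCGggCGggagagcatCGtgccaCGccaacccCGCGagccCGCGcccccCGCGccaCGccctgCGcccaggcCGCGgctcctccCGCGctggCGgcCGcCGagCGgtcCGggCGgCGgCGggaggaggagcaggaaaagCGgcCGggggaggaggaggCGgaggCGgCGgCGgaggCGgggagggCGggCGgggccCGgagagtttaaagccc
Hhex: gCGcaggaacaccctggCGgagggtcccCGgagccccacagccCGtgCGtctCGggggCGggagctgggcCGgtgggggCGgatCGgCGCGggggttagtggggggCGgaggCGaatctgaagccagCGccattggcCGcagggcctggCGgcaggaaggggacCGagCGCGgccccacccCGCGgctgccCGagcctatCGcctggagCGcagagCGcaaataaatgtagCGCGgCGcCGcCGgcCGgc
Hmx3: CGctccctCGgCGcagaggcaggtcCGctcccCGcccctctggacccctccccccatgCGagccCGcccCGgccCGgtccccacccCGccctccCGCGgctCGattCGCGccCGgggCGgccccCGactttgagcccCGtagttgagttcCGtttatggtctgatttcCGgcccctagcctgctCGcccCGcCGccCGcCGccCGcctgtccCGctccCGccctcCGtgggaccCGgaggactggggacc
Adrb1: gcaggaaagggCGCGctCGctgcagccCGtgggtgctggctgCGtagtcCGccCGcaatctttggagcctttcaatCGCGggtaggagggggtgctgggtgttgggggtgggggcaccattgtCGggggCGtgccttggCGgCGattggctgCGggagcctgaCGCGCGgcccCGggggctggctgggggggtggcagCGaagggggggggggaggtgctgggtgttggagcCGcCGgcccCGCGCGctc
Ferd3l: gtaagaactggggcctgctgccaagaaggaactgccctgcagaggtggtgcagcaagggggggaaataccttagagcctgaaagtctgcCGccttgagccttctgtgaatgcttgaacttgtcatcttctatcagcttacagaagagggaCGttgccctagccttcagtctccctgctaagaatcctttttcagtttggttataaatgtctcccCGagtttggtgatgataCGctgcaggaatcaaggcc

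Across whole regions, members had a median of 49.9 CpGs per kb (interquartile range 37.2 to 63.8) and a median GC content of 58.8%. Regions marked in all 6 P7 and P14 libraries and in 1, 2 or all 3 P60 libraries had medians of 45.1, 46.0 and 44.3 CpGs per kb. Promoter regions with peaks only at P7 had 38.6 and all promoter regions 31.0. By a simple island criterion, a GC content of at least 50% and an observed-to-expected CpG ratio of at least 0.6, 232 members (43.6%) qualified. The share was 37.1%, 35.6% and 31.1% with 1, 2 and 3 P60 libraries, and 26.5% for the P7-only regions. These are descriptions over regions of one genome and carry no test, and the interquartile ranges of the classes overlapped.

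Members had a median width of 2147.5 bp (interquartile range 1657 to 2647 bp), and the merged interval ran over a TSS in 405 of them (76.1%). The share was 83.2%, 87.8% and 79.7% with 1, 2 and 3 P60 libraries, 52.4% for P7-only regions and 43.2% for all promoter regions. Exons made up 35.1% of the bases of members, introns 40.1% and sequence outside genes 24.9%. The exon share was 30.5%, 28.9% and 29.5% with 1, 2 and 3 P60 libraries and 25.0% for P7-only regions. Around the nearest TSS, the share of members covered was highest just downstream, at 200 to 400 bp. At that point P7 libraries covered 76.1%, 63.0% and 59.6% of the members and P14 libraries covered 33.5%, 64.3% and 68.1%. Coverage had dropped to between 0.940% and 12.8% at 3 kb downstream in these 6 libraries. The rule kept only regions near a TSS, so the fall to each side is partly the selection.

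**Figure D1:**
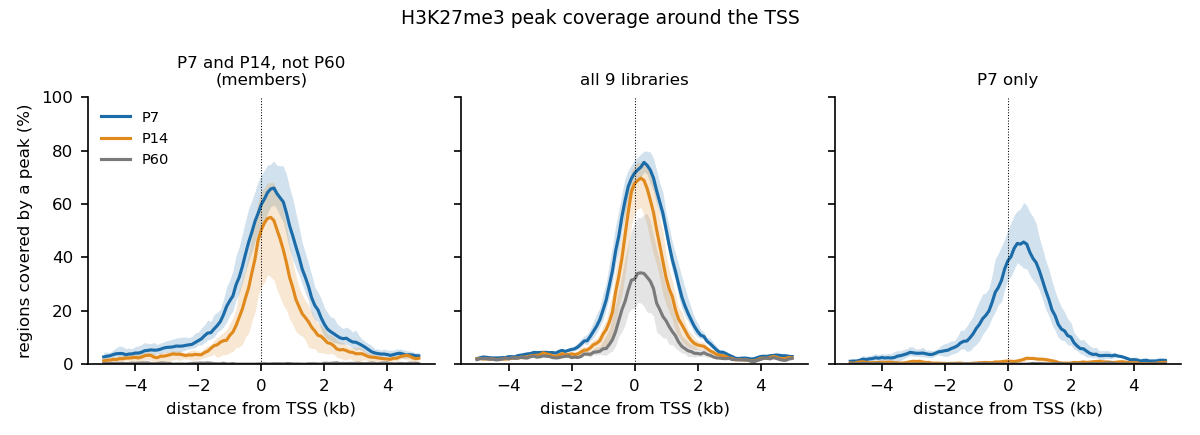
Percent of regions covered by an H3K27me3 peak (y axis) against distance from the nearest TSS in kb (x axis, positive downstream), for the members, the promoter regions marked in all 9 libraries and those marked only at P7. Lines are means of 3 libraries and bands run from the lowest to the highest library. Members have a P7 and a P14 peak of coverage just downstream of the TSS, at most 76.1% and 68.1% in single libraries, and a P60 line near 0 by their selection.

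The 12 members with the longest P14 coverage, ranked by covered length in their weakest P14 library, included developmental regulators and neuronal genes. This ranks length and not peak strength, and the strongest Mafa peak in P14 replicate 1 had a -log10 q of 1.59. Mafa, which encodes a basic leucine zipper factor known for driving insulin transcription, came first. Its region, chr15:75744424-75748575, holds 2739 bp of exon and 1413 bp outside genes. Peaks covered 4004, 2222 and 2923 bp of it in the 3 P7 libraries and 1917, 2368 and 2503 bp in the 3 P14 libraries. The stages overlapped.

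Hmx3, a homeobox gene of the inner ear and hypothalamus, was covered over 3875, 2656 and 2625 bp at P7 and 1622, 2738 and 2712 bp at P14 (chr7:131540742-131544767). Hhex, a homeobox gene of the early liver and blood lineages, had 3694, 2195 and 1712 bp at P7 and 1607, 1650 and 1937 bp at P14 (chr19:37433854-37437547). Sp8, a zinc finger gene of limb and forebrain patterning, had 2273, 2241 and 2029 bp at P7 and 1627, 2185 and 2052 bp at P14 (chr12:118848078-118850376). All 3 genes had overlapping P7 and P14 values, with the lowest P14 value in replicate 1. Ferd3l, a basic helix-loop-helix (bHLH) gene of the neural floor plate, had 3052, 2294 and 2227 bp at P7 and 1412, 2808 and 2083 bp at P14 (chr12:33927469-33930528).

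Neuronal genes made up 3 of the 12. Adrb1, the beta-1 adrenergic receptor, had 3287, 2644 and 2456 bp at P7 and 1499, 2472 and 2439 bp at P14 (chr19:56721228-56724514). Shank1, a scaffold of the postsynaptic density, had 2789, 2661 and 2157 bp at P7 and 1431, 1694 and 2565 bp at P14, in a region that lay wholly in exon sequence, 2789 bp (chr7:44351729-44354517). Sdk2, a synaptic adhesion molecule of the immunoglobulin family, had 2480, 2026 and 1708 bp at P7 and 1704, 1911 and 2384 bp at P14 (chr11:114064096-114066675). Replicate 1 was the lowest P14 library in each of these 3 genes.

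The other 4 are linked to growth and chromatin, apart from Kazald1, which encodes a secreted protein with a Kazal domain. Kazald1 had 2449, 2376 and 2460 bp at P7 and 1806, 1670 and 2292 bp at P14 (chr19:45076461-45079019), and its stages did not overlap. Nor did those of Cdc14b, a dual-specificity phosphatase, with 2689, 2696 and 2567 bp at P7 and 1455, 1758 and 1615 bp at P14 (chr13:64273326-64276034). Grb10, an imprinted adaptor of the insulin receptor, had 2748, 2104 and 1440 bp at P7 and 1447, 1574 and 1647 bp at P14 (chr11:12035524-12038271). Hmga2, an architectural chromatin protein of embryonic cells, had 3882, 2345 and 2336 bp at P7 and 1433, 2532 and 2584 bp at P14 (chr10:120474548-120478429). Only Kazald1 and Cdc14b of the 12 had P7 and P14 values that did not overlap, and in both P14 was the lower.

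**Figure D2:**
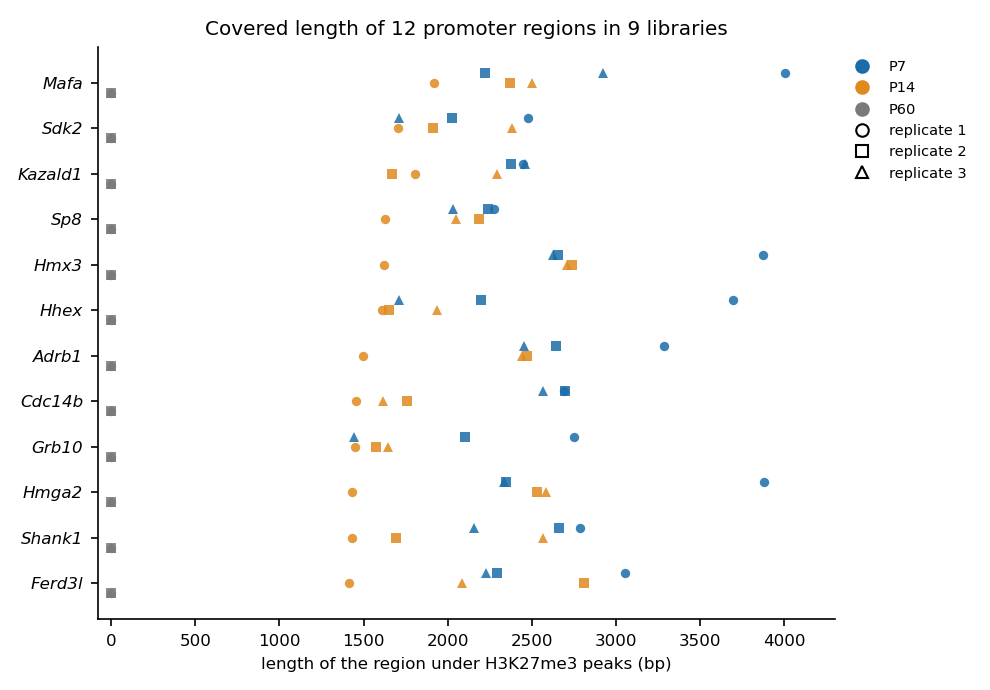
Length of the region under H3K27me3 peaks in bp (x axis) for the 12 members with the highest coverage in their weakest P14 library (y axis), with colours for the stage and symbols for the replicate. P7 values run from 1440 to 4004 bp and P14 values from 1412 to 2808 bp, and most genes overlap between these stages, while the P60 points sit at 0 by the selection.

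Over all 532 members, mean covered percent was 89.5, 65.0 and 60.02 in the P7 libraries and 25.8, 53.7 and 63.3 in the P14 libraries, which is 71.5 ± 15.8 at P7 and 47.6 ± 19.5 at P14 (mean ± SD, n = 3 each). The highest P14 library exceeded the lowest P7 library, so the stages overlapped. A library stood apart at each stage. P7 replicate 1 had the widest coverage, and its list spanned 15.2 Mb against 8.40 and 7.38 Mb in the other P7 lists. P14 replicate 1 had narrow peaks, with a median width of 269 bp against 454 and 580 bp in the other P14 lists. The difference between the stage means, -23.9 points, was -16.4 without P7 replicate 1 and -18.1 without P14 replicate 1. In 178 members (33.5%) all 3 P14 libraries were below all 3 P7 libraries, against 32.8% of the 1989 promoter regions marked in these 6 libraries. In 2 members (0.376%) all P14 libraries were above all P7 libraries, against 0.654% of the same background. Without P14 replicate 1 these counts were 179 (33.6%) and 29 (5.45%), against 33.1% and 5.23% of the 1989 regions. The members were thus near the background in how their covered length differed from P7 to P14.

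The 2 members with every P14 library above every P7 library are named here after their values were seen. Foxf2, a forkhead gene of the mesenchyme and of brain pericytes, was covered over 368, 503 and 342 bp at P7 and 520, 2093 and 1207 bp at P14 (chr13:31625125-31627322). The second region of Tbx2, a T-box gene of heart and limb, had 448, 243 and 383 bp at P7 and 742, 940 and 754 bp at P14 (chr11:85832027-85833062). Their P60 values were 0 by the selection.

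Members held weaker peaks at P7 and P14 than the regions that kept a peak at P60. The strongest peak of each region was ranked by its -log10 q within its own list, where 100 is the top of the list. Members had a median rank of 69.8 ± 10.1 at P7 and 57.2 ± 18.2 at P14 (mean of library medians ± SD, n = 3). With 1 P60 library the ranks were 73.7 ± 9.34 and 63.9 ± 17.8, with 2 they were 78.6 ± 8.61 and 69.3 ± 17.0, and with all 3 they were 86.7 ± 5.69 and 80.0 ± 13.7. The P7-only regions ranked lower, at 50.0 ± 14.7 at P7. The share of promoter regions marked at P7 and P14 that had no P60 peak was 46.5%, 34.9%, 30.0%, 14.6% and 7.79% from the lowest to the highest quintile of mean rank. Peak strength moved with membership, and its part in the absence of P60 peaks was not tested.

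Transcription factor genes were the most prominent group by number. The members lay within 3 kb of 554 genes, 2.53% of the 21924 protein-coding genes, and 147 of the 554 (26.5%) were in one of the transcription factor lists, which hold 2.34% of all genes. Among genes with regions in 1, 2 and 3 P60 libraries the share was 13.2%, 8.28% and 6.43%, and it was 6.16% for P7-only regions. Seen from the other side, 54.6% of the 269 listed factor genes marked at P7 and P14 were member genes, against 23.3% of the 1746 other marked genes. The lists are not complete, and Sp8 for example is in none of them.

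Hox genes, the homeobox genes that pattern the body from the hindbrain backwards and are silent in the hindbrain segment that forms the cerebellum, gave 26 member genes out of 39 (66.7%), as high a share as the Iroquois genes. Of the 30 Hox genes marked at P7 and P14, 4 had a region with a peak in 1 P60 library and 0 in 2 or 3. Hoxd1 was covered over 2216, 1605 and 1801 bp at P7 and 995, 1516 and 1576 bp at P14 (chr2:74762125-74764340). Hoxb2 had 2299, 1869 and 2242 bp at P7 and 366, 1719 and 1760 bp at P14 (chr11:96351738-96355093). Hoxa13, a gene of the distal limb, had 1843, 1975 and 1864 bp at P7 and 416, 1777 and 1392 bp at P14. In Hoxd1, Hoxb2 and Hoxa13 all P14 values were below all P7 values. That was so in 33.5% of all members and in 32.8% of the 1989 promoter regions marked at P7 and P14. The stages overlapped in Hoxb13, which had 2774, 2138 and 514 bp at P7 and 574, 785 and 1862 bp at P14.

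Many Hox members lay near each other on the chromosome, although Hoxb13 had no other member within 50 kb. Of the members, 103 (19.4%) had another member within 50 kb, in 40 groups of which 32 were pairs. The largest group, 9 members from Evx2 to Hoxd1, spanned chr2:74654366-74764340. Groups of 6 lay in the Hoxa and Hoxc clusters and 4 in Hoxb. The pairs Dlx1 with Dlx2, Dlx5 with Dlx6, Hmx2 with Hmx3, and Ferd3l with Twist1 were also neighbours, so member regions are not independent of each other.

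Other homeobox genes supplied 42 member genes of 118. Emx1, a regulator of the cerebral cortex, had 3910, 3624 and 3618 bp at P7 and 953, 3923 and 2384 bp at P14, and Pou4f2, a regulator of retinal ganglion cells, had 3600, 2420 and 3000 bp at P7 and 1184, 3226 and 3327 bp at P14. The 2 stages overlapped in both genes. LIM homeobox genes supplied 6 of 12, among them Lmx1a, a gene of the rhombic lip and of unipolar brush cells, with 2213, 2317 and 2169 bp at P7 and 626, 2032 and 2112 bp at P14. Iroquois genes supplied 4 of 6, and Irx1 was covered over 1033, 423 and 383 bp at P7 and 639, 1273 and 2082 bp at P14.

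Forkhead genes gave 13 of 44, Gata and T-box genes 9 of 23, Pax genes 3 of 9, Sox genes 4 of 20 and the bHLH, Hes and Id genes 10 of 58. In these lists, in the same order, 26, 14, 5, 11 and 27 genes were marked at P7 and P14. Sox2, a factor of neural stem cells and glia, was covered over 2708, 2404 and 2166 bp at P7 and 1246, 2649 and 2652 bp at P14. Hes5, a Notch target of progenitors and glia, had 2947, 2293 and 2046 bp at P7 and 245, 1520 and 1369 bp at P14. Twist1, a bHLH gene of mesenchyme, had 3036, 1563 and 2007 bp at P7 and 1189, 1791 and 2928 bp at P14. The Zic and Gli genes, of which Zic1 and Zic2 are expressed in granule cells, gave 0 of 11, with 4 marked at P7 and P14 and 3 of these in all 9 libraries.

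**Figure D3:**
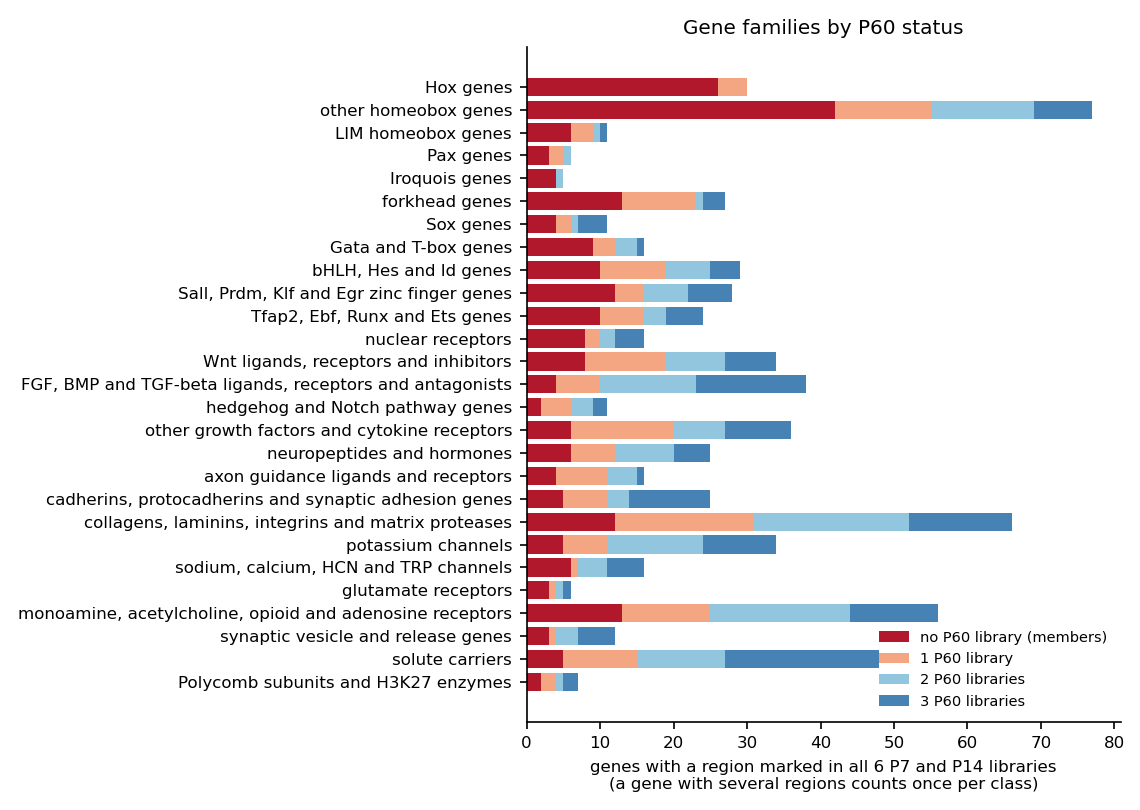
Number of genes per family with a promoter region marked in all 6 P7 and P14 libraries (x axis), split by how many P60 libraries had a peak. Members are the dark red part, which is 26 of the 30 marked Hox genes and 42 of the other homeobox genes but 4 of the genes of FGF, BMP and TGF-beta signalling.

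The share of members was higher near factor genes in each quintile of CpG density. Among these regions a member is one without a P60 peak, which is the selection itself, so the shares are descriptions. Whether CpG density or peak rank accounts for the difference was not tested. In quintiles of CpG density of the 1989 regions, 42.9%, 52.2%, 47.5%, 47.5% and 63.6% of the regions near a factor gene were members, against 19.4%, 20.5%, 18.8%, 24.3% and 28.1% of other regions. In quintiles of peak rank the share was also higher near factor genes in each quintile, by differing amounts. Regions near a factor gene had a median rank of 64.0 against 71.4 for the others. In the 3 lower quintiles of rank 75.5%, 65.0% and 50.8% of the regions near factor genes were members, against 36.5%, 29.6% and 25.9% of the others. In the upper quintiles the shares were 17.8% and 14.8% against 14.2% and 7.28%. In points the difference was thus smaller in the upper quintiles. The last of these rests on 4 members among 27 regions near factor genes.

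**Figure D4:**
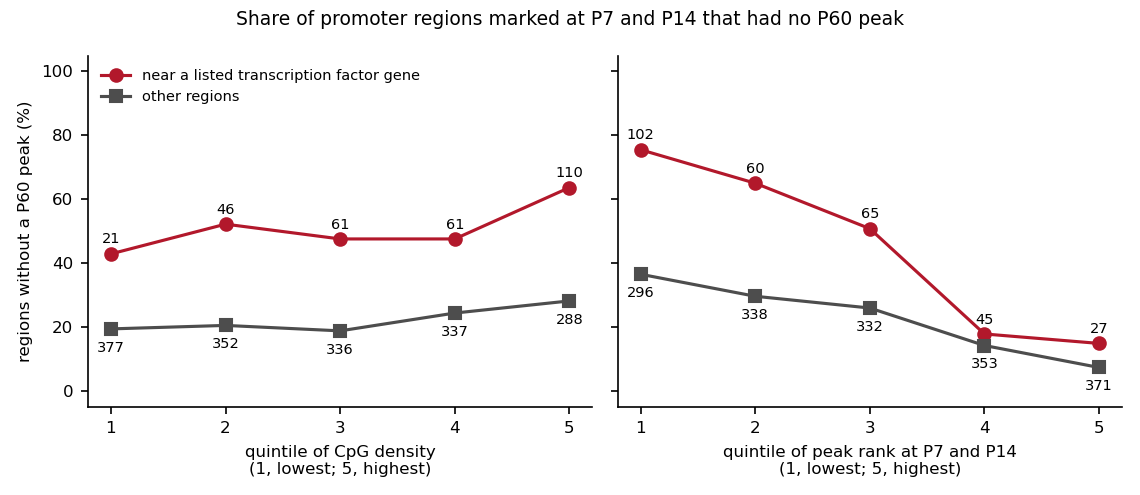
Percent of the promoter regions marked at P7 and P14 that had no P60 peak (y axis) in 5 quintiles of CpG density (left) or of peak rank at P7 and P14 (right), for regions near a listed transcription factor gene and for other regions, with the number of regions printed at each point. The red points lie above the grey ones throughout in both panels. On the right they come closest in points in quintile 4, at 17.8% against 14.2%, with 14.8% against 7.28% in quintile 5.

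All promoter regions with a peak in every P7 library were then followed, whatever their P14 and P60 peaks. The members are among them, as 161 of 410 regions near a factor gene, 371 of 2796 others and 25 of 33 near Hox genes. Members have P14 peaks and no P60 peak by their selection, so the shares below are not independent of it. Of 410 such regions near a factor gene, 73.7%, 91.2% and 92.2% had a peak in the P14 libraries and 20.2%, 15.1% and 32.7% in the P60 libraries. The means were 85.7 ± 10.4% and 22.7 ± 9.03% (SD, n = 3 libraries). Of 2796 other regions, 75.1 ± 11.6% had a peak at P14 and 38.9 ± 11.9% at P60. In each P14 library the share was higher near factor genes, and in each P60 library it was lower. For 33 regions near Hox genes the P14 values were 87.9%, 97.0% and 97.0%, and the P60 values 0%, 3.03% and 12.1%. The same order in all 3 libraries of a stage is a description, since the groups of genes were chosen with results of these libraries known.

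Mature granule neuron genes had fewer P14 peaks than these groups, over a small number of regions. Of 12 regions near genes of this list with a peak in every P7 library, 25.0%, 41.7% and 50.0% had a peak in the P14 libraries. In the P60 libraries 8.33%, 0% and 8.33% had one, a mean of 5.56% against 5.05% for the Hox regions. Of the 12, 4 were P7-only regions while 1 was a member. The member was Car4, a carbonic anhydrase, covered over 2753, 2635 and 2390 bp at P7 and 103, 728 and 769 bp at P14 (chr11:84956552-84959375), with no overlap between the stages. Grin2c, the NMDA receptor subunit of mature granule neurons, missed the selection in 1 library, with 2057, 1783 and 1700 bp at P7, 0, 1202 and 1270 bp at P14 and 0 bp at P60. Grm4, a metabotropic glutamate receptor of granule cells, had 2680, 1622 and 2545 bp at P7 and 0, 626 and 0 bp at P14. Mycn and Myc, growth-promoting factors of precursors, were not members, and Mycn had no P7 peak and 203, 61 and 2152 bp at P60.

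**Figure D5:**
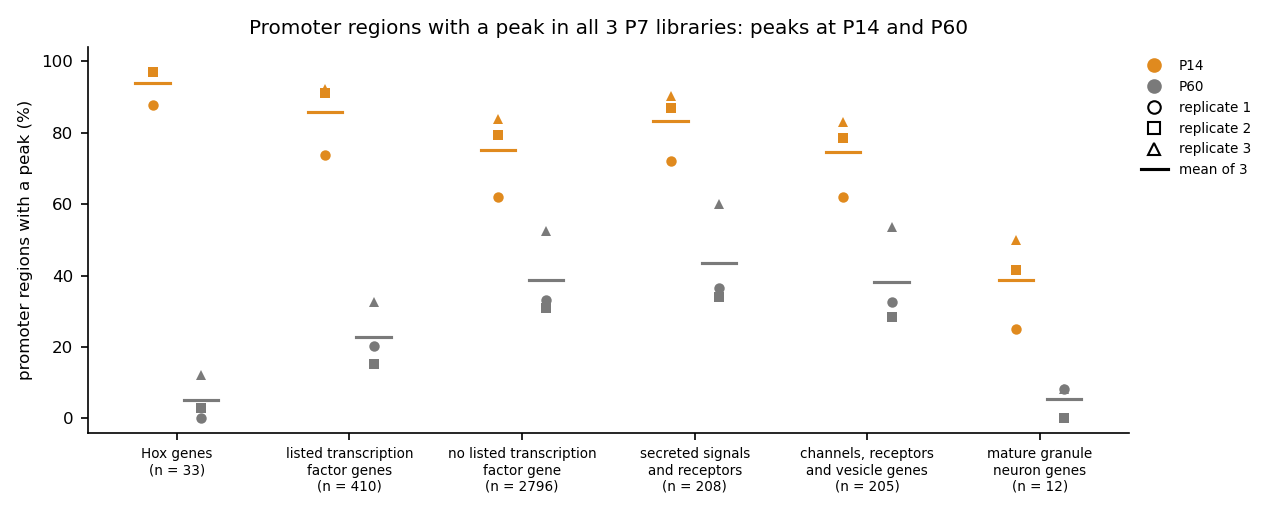
Percent of promoter regions with a peak (y axis) in each P14 and P60 library, for regions with a peak in all 3 P7 libraries grouped by the genes near them (x axis, n is the number of regions). Symbols are libraries and bars their means. Hox regions go from 93.9% at P14 to 5.05% at P60, and other regions without a listed factor from 75.1% to 38.9%. Mature granule neuron regions go from 38.9% at P14 to 5.56% at P60. Every group includes members, which have P14 peaks and no P60 peak by their selection.

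Signalling genes made up a smaller part of the members. Wnt pathway genes, which carry signals between cells in many tissues, gave 8 members of 55, of which 32 were marked at P7 and P14. Fzd10, a Wnt receptor, was covered over 2896, 2433 and 3001 bp at P7 and 916, 2598 and 3586 bp at P14, and Wnt8b, a ligand of the forebrain margin, over 2709, 2111 and 1394 bp at P7 and 569, 1786 and 1228 bp at P14. FGF, BMP and TGF-beta genes gave 4 of 97, with 15 of their 38 marked genes in all 9 libraries. Bmp7 had 2343, 2250 and 694 bp at P7 and 516, 1124 and 1795 bp at P14. Secreted signals were 4.69% of the member genes and 6.26% of the genes marked in all 9 libraries. With 1 and 2 P60 libraries they were 9.30% and 8.07%, with 3.20% for P7-only regions and 2.09% of all genes.

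Channels, receptors and vesicle genes were 5.42% of member genes and 5.44% of genes marked in all 9 libraries. With 1 and 2 P60 libraries the shares were 4.76% and 8.49%, with 7.14% for P7-only regions and 2.35% of all genes. Potassium channel genes gave 5 of 94, with 33 marked at P7 and P14. Among the 5 was Kcnc4, with 2882, 2840 and 2273 bp at P7 and 789, 1181 and 1148 bp at P14. Scn4b, an accessory sodium channel subunit linked to resurgent current, had 2203, 1774 and 1871 bp at P7 and 815, 1325 and 1370 bp at P14. Syt2, a calcium sensor of fast transmitter release, had 2523, 1652 and 2875 bp at P7 and 478, 546 and 1122 bp at P14. In these 3 genes every P14 value was below every P7 value, as in 33.5% of all members. The stages overlapped in Asic4 and Rimbp2, the members with the highest mean coverage in the lists that hold Scn4b and Syt2. The highest P14 value was 2513 bp against a lowest P7 value of 2192 bp in Asic4, and 2105 against 1968 bp in Rimbp2. Glutamate receptor genes gave 3 of 27, namely Grm6, Grik3 and Grm2, with 6 marked at P7 and P14. GABA and glycine receptor genes gave 0 of 26, but only 1 was marked at P7 and P14, so few could have been members. Of all marked genes outside the factor lists, 23.3% were member genes.

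Adhesion and matrix genes gave small numbers, 5 of 185 for cadherins and synaptic adhesion and 12 of 188 for matrix. In these lists 23 and 64 genes were marked at P7 and P14. Cbln4, a synaptic organiser of the cerebellin family, had 2730, 2216 and 2468 bp at P7 and 1319, 2555 and 2567 bp at P14. Adamts9, a matrix protease, had the widest member region, 5318 bp. Solute carriers gave 5 of 385, with 47 marked at P7 and P14. Polycomb genes gave 2 of 34, Rybp and Pcgf5, both of subunits of Polycomb repressive complex 1. Of the 34, 7 were marked at P7 and P14. Rybp was covered over 1385, 1415 and 1317 bp at P7 and 567, 696 and 1260 bp at P14.

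Marker lists were read in the same way, against 2.53% of all genes. A list of inhibitory neuron genes gave 6 members of 13, with 8 marked at P7 and P14, namely Dlx1, Dlx2, Gad2, Lhx9, Slc6a5 and Tfap2b. Of these, Dlx1 and Dlx2 are known from forebrain interneurons and Lhx9 from glutamatergic neurons of the cerebellar nuclei, so the count is not one of cerebellar interneuron markers. Oligodendrocyte lineage genes gave 3 of 10 (Olig2, Nkx2-2 and Myrf), unipolar brush cell genes 2 of 6 (Lmx1a and Otx2) and granule neuron progenitor genes 2 of 15 (Sox2 and Hes5). Endothelial and mural genes gave 1 of 11, Foxf2. In the oligodendrocyte, unipolar brush cell, progenitor and endothelial lists 6, 3, 6 and 4 genes were marked at P7 and P14. Purkinje cell, astrocyte and Bergmann glia, microglia, ribosomal protein and olfactory receptor lists gave 0 members each, of 13, 10, 9, 95 and 1092 genes. In each of these 5 lists 1 or 2 genes were marked at P7 and P14, so few could have been members. In all, 236 member genes were in one of the lists and 318 in none. Without expression values the cell type in which each region was marked was not measured.

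Libraries left out of the selection gave a measure of how repeatable it was. Each P60 library was held out in turn and the promoter regions marked at P7 and P14 were sorted by the other P60 libraries. Where neither of these had a peak, the held-out library had one in 55 of 587 regions (9.37%), 36 of 568 (6.34%) and 338 of 870 (38.9%) for P60 replicates 1, 2 and 3. The 95% Wilson intervals for replicates 2 and 3 were 4.61% to 8.65% and 35.7% to 42.1%, and cover counting error only. Where both had one, the shares were 75.2%, 70.2% and 97.1%. P60 replicate 3 therefore held peaks in many regions that the others missed. Its peaks had a median width of 410 bp, against 134 and 149 bp in replicates 1 and 2.

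The same was done for P14 among promoter regions with all P7 and no P60 peaks. Where both other P14 libraries had a peak, the held-out library had one in 63.9%, 96.7% and 99.1% for replicates 1, 2 and 3. Where neither had one, the shares were 1.05%, 12.1% and 28.9%. At P7 the corresponding shares with both others present were 100%, 97.3% and 93.0%. P14 replicate 1 was thus the list that most often lacked a peak the others had.

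Without P14 replicate 1 there would have been 833 members, and without P60 replicate 3 there would have been 870, with factor genes at 21.6% and 20.9% of member genes. With both P60 replicates 1 and 2 and P14 replicate 1 left out, the 3 lists of narrow peaks, there were 971 members and factor genes were 20.0%. The selection also depended on the strength of peaks. The weakest of a member's 6 peaks had a median -log10 q of 1.74 (1.03 to 3.93). With peaks of -log10 q of 2 or more, 490 regions met the rule, of which 155 of the 532 members (29.1%) were part, and factor genes were 16.3% against 0.820% for all 9 libraries. At 4 or more, 27 regions met it, no member had such peaks in all 6 libraries, and 0 of 31 genes were listed factors.

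Values at the edge of the selection show how close the call can be. Prr23a3, Tfap2b and Elfn2 had the weakest peaks among members, with a lowest -log10 q of 1.03, 1.03 and 1.05. Urm1, Ush1g and Evx2 were the members farthest from a TSS, at 2925, 2924 and 2917 bp. Just outside it, Asap1, Cdkn1c and Isl2 had 51 bp of peak in P60 replicate 1 and none in the other P60 libraries. Nptx1, Plk5 and Nab2 lacked a peak in P14 replicate 1 alone, with Nptx1 at 3471, 3454 and 3274 bp at P7 and 0, 468 and 988 bp at P14. Nr2e1, Bsx and Zfp853 had the same peak pattern at 3259, 3285 and 3349 bp from a TSS, among 274 regions with it that were not at promoters.

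Peaks at P60 lay near many members. The nearest P60 peak of any library was within 10 kb of 138 members (25.9%) and of 35 of the 378 P7-only regions (9.26%), at a median distance of 30169 bp against 67116 bp. Within 50 kb the shares were 61.5% and 41.5%. Members thus had no P60 peak of their own but lay near one more often than the P7-only regions did. The share for all promoter regions was not set beside these.

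The 300 bases around the annotated start, 250 before and 50 after, were found in RefSeq for 396 of the 554 member genes and searched on both strands. The ZIC core CAGCAGG was in 45 of these (11.4%), against 10.4% of all 16522 genes with such a sequence, 13.2% of genes marked in all 9 libraries and 10.2% of the P7-only genes. This share was close to that of all genes, and it says nothing of the binding of ZIC factors. The 250 bases before the start held a median of 16 CpGs in member genes, 15, 14 and 14 in genes of regions with 1, 2 and 3 P60 libraries, 17 in P7-only genes and 10 in all genes. In this window the members thus did not stand above the P7-only genes.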

How the data were processed

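Broad peak lists of H3K27me3 ChIP-seq were used for 9 libraries, 3 each at P7, P14 and P60. Per the labels and the study's methods, the authors fixed tissue with formaldehyde, sequenced single ends, trimmed reads with Trimmomatic 0.38, aligned them with STAR 2.7.2b to mm10 and called peaks with MACS2 2.1 at a false discovery rate of 0.01, 1 list per library. No input library is named, and the authors' notes also list FastQC, bedtools 2.25.0 and DESeq2 1.36.0. The deposited lists give a fold enrichment ratio, -log10 p, -log10 q and a score of 10 times -log10 q for each peak. Their lowest -log10 q was 1.00 to 1.01, so they hold peaks weaker than the named threshold. Lists held 6905 to 15600 peaks. They spanned 15.2, 8.40 and 7.38 Mb at P7, 3.62, 7.79 and 9.26 Mb at P14, and 2.82, 1.48 and 3.61 Mb at P60. How far the shorter span of the P60 lists bears on the absence of P60 peaks was not tested. The sources used here give no read number per library, so depth is unknown.

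The deposited peak positions were merged with pandas 2.3.3 and numpy 2.4.6 in Python 3.11.15. A library had a region if 1 bp or more of it lay under a peak. TSSs and exons came from GENCODE vM21, sequences from RefSeq and the GRCm38.p6 genome, read with pysam 0.24.0. The merge, coverage and rule were tested on simulated data. The 5 Kdm6b-WT and Kdm6b-cKO lists run past the ends of 5 GRCm38 chromosomes and no list of the other 9 does, so they are not on the same build, and the comparisons planned with them were not made. The members and gene lists were chosen with earlier results of these data known, and no test was run. The lists of genes hold 41 families or marker sets. Named genes are the 12 members with the longest coverage in their weakest P14 library, up to 4 of each family by mean coverage, of which the text gives a part, the nearest members and misses of each rule, and Grin2c, Grm4, Mycn and Myc. Alternatives were other peak thresholds, equal list lengths, other TSS definitions and each library left out.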

Additional observations from a re-analysis of the deposited data

How the results depend on the processing

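Of the alternatives, the 1 kb TSS window (491 members), the 5' end of each gene (430), -log10 q of 2 or more (490) and peaks of at least 300 bp (490) kept the number within 1.5 times. A like number did not mean the same regions. Of the 532 members, 29.1% were among those found at -log10 q of 2, 62.0% with peaks of 300 bp and 43.2% with equal lists. The number moved to 27 at -log10 q of 4 or more, 258 when each list was cut to its 6905 strongest peaks, 24 when 50% of the region had to be covered, and 971 without the 3 lists of narrow peaks, a setting chosen after seeing the data. Without each library in turn it ran from 529 to 870. The other measures were recomputed under the same settings, also chosen after seeing the data. The percent of factor genes moved from 26.5% to 16.3% at -log10 q of 2, 0% at 4, 22.4% with peaks of 300 bp, 22.9% with equal lists, 40.0% with 50% coverage and 20.0% without the narrow lists, and ran from 20.9% to 26.7% over libraries left out. The share of members with island sequence moved from 43.6% to 70.4% at -log10 q of 4, 48.4% with equal lists, 62.5% with 50% coverage and 37.8% without the narrow lists, and ran from 37.9% to 50.9%. The difference of covered percent, P14 minus P7, was -23.9 points and ran from -32.3 to -16.4 over libraries left out, and was -7.83 with 50% coverage. The mean share of regions with a peak in a held-out P60 library was 18.2%. It was 10.2% at -log10 q of 4, 22.4% with equal lists and 29.0% with 50% coverage, and ran from 15.7% to 18.4% when each P7 or P14 library was left out. The cause of these shifts was not tested. No paired analysis was possible because no result comes from a test, and the replicate numbers of different stages come from different mice. The 3 planned comparisons with the Kdm6b-WT and Kdm6b-cKO libraries were not run because of the genome build. A P60 absence means that no peak was called, and how far depth limits it is not known.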

Other observations

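Outside the Hox clusters, the groups of 3 or more neighbouring members are given here, and some held genes other than patterning factors. On chromosome 1, 5 members lay together at chr1:75359439-75451688, at Des, which encodes the muscle intermediate filament desmin, at Speg, a kinase of striated muscle with 3 of the regions, and at Asic4, a member of the acid-sensing ion channel family. On chromosome 12, 3 members lay at Acot1, Acot3 and Acot5, neighbouring acyl-CoA thioesterase genes (chr12:84009152-84070365), whose reads can be hard to assign because the genes are similar copies. Tbx4, a T-box gene of the hindlimb, held 3 separate member regions within chr11:85888288-85895708. On chromosome 16, 3 members lay at Tbx1, also a T-box gene, and at Gp1bb (chr16:18580790-18623159). These groups were picked after the values were seen and were not tested.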
